A study of Xenopus laevis with 6 samples.

Results

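Genes of collagens, laminins, fibrillins, fibronectin, Sparc and nidogens were followed in whole gastrulae of Xenopus laevis, the African clawed frog. Members were chosen by the spelling of the gene name, all copies and "-like" forms included, which took 73 of 45099 gene rows. Of these, 71 are matrix genes. The other 2, col4a3bp.L and col4a3bp.S, carry the name of a collagen but encode a ceramide transfer protein, and are given apart. Embryos injected with dkk (n = 3) received 100 pg of dkk mRNA in both cells at the 2-cell stage. Controls (n = 3) were uninjected siblings, so an effect of the injection as such and an effect of dkk cannot be told apart. All 6 embryos were taken whole at stage 11.5, one per library, and each dkk embryo was paired with a control of the same mating, in 3 matings. Dickkopf is a secreted antagonist of the Wnt co-receptors, and the study asked which genes respond at gastrulation when canonical Wnt/β-catenin signalling is knocked down.

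Fibrillar collagens assemble into banded fibrils, on which the so-called FACIT collagens sit, while type IV collagen and the laminins form the sheet of basement membranes, bridged by nidogens. Fibrillins build microfibrils that also hold growth factors of the TGF-β class. In the amphibian gastrula, fibronectin fibrils line the blastocoel roof and are known as the substrate on which mesoderm migrates. X. laevis carries many genes in an L and an S copy, one from each subgenome, and the suffix names the copy.

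Libraries held 17460820 to 19880568 reads in genes. Of these, the 73 members took 0.255%, 0.209% and 0.205% in dkk embryos 1 to 3, against 0.283%, 0.249% and 0.232% in their control siblings. The dkk share was thus the lower one in each pair. Levels are given as CPM, read counts scaled to a common library size with TMM factors. They are not divided by gene length and are therefore not compared between genes. Summed over the 73 members, the mean level was 2233 CPM in dkk embryos and 2572 CPM in controls. The 2 fibronectin rows held 1141 CPM of this in dkk embryos and 1553 CPM in controls. Not every family had the lower mean sum in dkk embryos. Mean sums in dkk embryos and controls were 136 and 129 CPM for collagens and 509 and 476 CPM for laminins. In the same order they were 89.6 and 45.6 CPM for fibrillins and 8.68 and 7.55 CPM for Sparc. Nidogens stood at 269 and 275 CPM and the col4a3bp rows at 79.0 and 86.2 CPM. The sums were not tested. The injected message showed in dkk1.S, at 570 ± 136 CPM in dkk embryos and 15.2 ± 4.18 CPM in controls (SD, n = 3 each), while dkk1.L was at 4.55 ± 3.91 CPM in dkk embryos and 16.1 ± 2.69 CPM in controls and did not pass the test below. Both copies of axin2, a feedback target of the pathway, fell, with axin2.L at 2.52 ± 2.60 CPM in dkk embryos and 69.4 ± 21.5 CPM in controls and axin2.S at 0.269 ± 0.237 CPM in dkk embryos and 5.89 ± 0.876 CPM in controls.

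Over the whole table, 0.573% of 21643 tested genes passed an adjusted p of 0.05 in the comparison of dkk with control embryos, 0.106% with a rise and 0.467% with a fall (edgeR quasi-likelihood test, mating as a block, Benjamini-Hochberg adjustment). Among the members, 39 were read deeply enough to be tested, of which 1 rose, 0 fell and 38 did not pass. An unadjusted p under 0.05 was reached by 7.82% of all tested genes, 3.63% higher and 4.19% lower in dkk embryos. It was reached by 6 members that were higher and 4 that were lower. In all 3 sibling pairs, 5 members were higher and 5 lower in the dkk embryo, 12.8% each, beside 13.4% and 13.9% of all tested genes. The members' median log2 fold change was 0.09, against -0.00131 for all tested genes. It differed by sibling pair, at 0.08, 0.38 and -0.15 in pairs 1 to 3, while the medians of all tested genes lay between -0.01 and 0.01. The 34 members left untested held 2 to 51 reads over all 6 libraries together, and are described further down. In whole embryos, fewer cells of a type and less RNA per cell cannot be told apart, for any gene here.

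**Figure D1:**
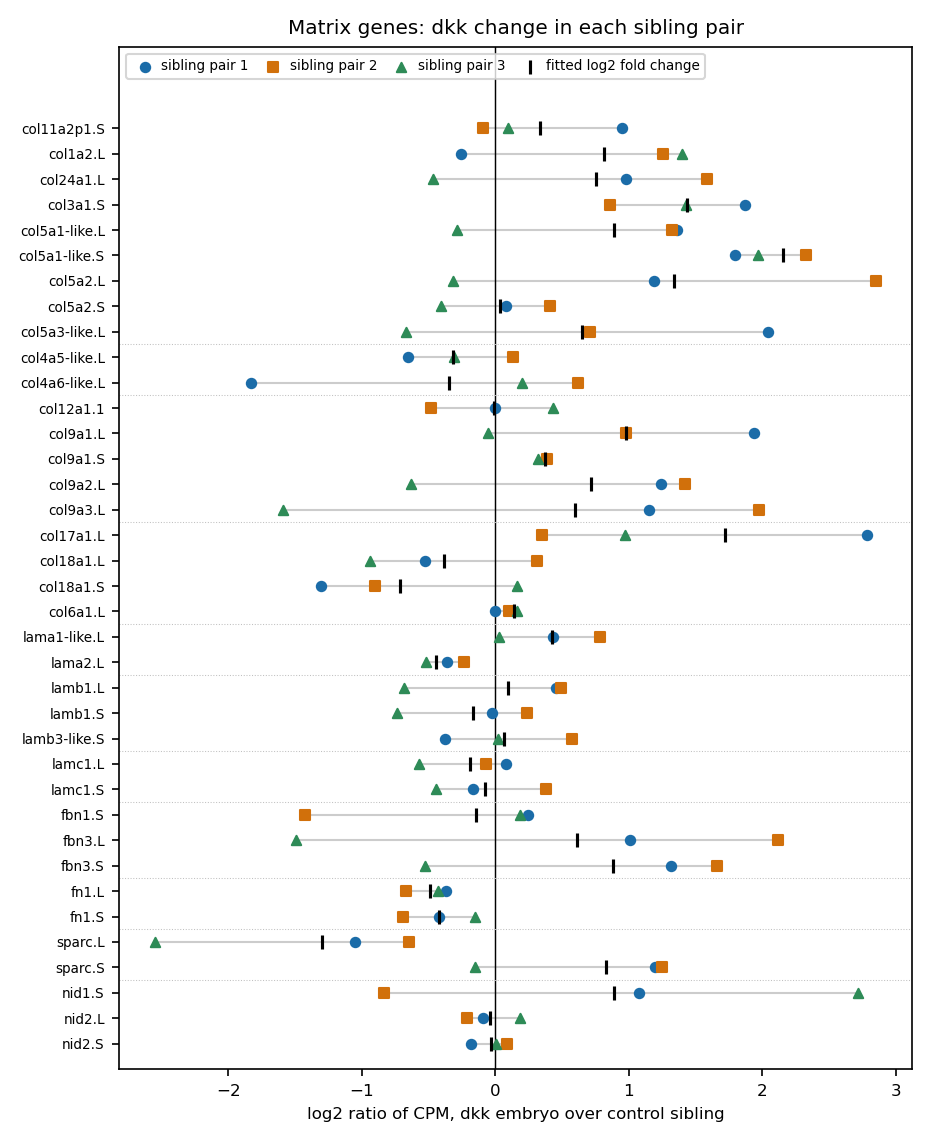
Log2 ratio of CPM, dkk embryo over control sibling, for the 37 tested matrix genes without col4a3bp, with a marker for each of the 3 sibling pairs and a bar for the fitted log2 fold change. Dotted lines separate families. For col5a1-like.S and col3a1.S all pairs lie right of 0 and for both fn1 copies all lie left of it, whereas in fbn3.L pairs 1 and 2 lie to the right and pair 3 at -1.50.

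The gene that rose was col5a1-like.S, named for the α1 chain of type V collagen, a minor fibrillar collagen that nucleates fibrils and sets their width. It was at 7.94, 4.51 and 1.50 CPM in dkk embryos 1 to 3, against 2.22, 0.816 and 0.303 CPM in their control siblings. Read counts were 148, 81 and 33 in dkk embryos, against 38, 15 and 6 in controls. Each dkk embryo exceeded its own sibling, but the groups overlapped, since the third dkk embryo was lower than the first control. The log2 fold change was 2.15 ± 0.31 (SE; 95% interval 1.44 to 2.87), with an adjusted p of 0.031 (edgeR). The L copy, col5a1-like.L, stood at 2.41, 2.06 and 0.771 CPM in dkk embryos, against 0.875, 0.762 and 0.961 CPM in controls. Its log2 fold change of 0.89 ± 0.45 did not pass (adjusted p = 0.712, edgeR), and pair 3 was not higher. Without mating pair 2 the call of col5a1-like.S was lost (log2 fold change 1.99, adjusted p = 0.152, edgeR), and with no block for the mating its adjusted p was 1.00 at a log2 fold change of 2.07. Over its 10 alternatives the log2 fold change ran between 1.99 and 2.38 and the adjusted p between 0.00091 and 1.00.

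The other fibrillar collagens lay in the same direction in the fit without passing the test. No row was spelled col1a1 or col2a1, so neither of these fibrillar genes is in the values given here. All 9 tested fibrillar members had a positive log2 fold change, as had 10766 of all 21643 tested genes. Their median was 0.82, and they kept the sign under both other scalings, with no block, and by DESeq2 and limma-voom. Without pair 1 that of col11a2p1.S was below 0, without pair 2 that of col5a2.S was, and without pair 3 the median was 1.40. In pairs 1 and 2, 8 of the 9 were higher in the dkk embryo, and in pair 3 it was 4 of the 9, beside 49.9%, 48.6% and 51.4% of all tested genes in pairs 1 to 3. Summed over the 15 fibrillar rows, the level was 38.3, 37.4 and 22.0 CPM in dkk embryos and 17.0, 19.2 and 17.5 CPM in controls.

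Among them, col3a1.S encodes the chain of type III collagen, which is abundant in distensible connective tissue. It was at 2.84, 2.45 and 7.53 CPM in dkk embryos, against 0.700, 1.31 and 2.73 CPM in controls. All 3 pairs were higher in dkk, and the groups overlapped because the third control was above the second dkk embryo. The log2 fold change was 1.44 ± 0.32 (SE; adjusted p = 0.150, edgeR). With no filter on low counts it passed (adjusted p = 0.0362, edgeR), within a range of 0.0362 to 1.00 over 10 alternatives. The L copy, col3a1.L, held 36 reads in all libraries together and was not tested.

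Both copies of col5a2, the partner chain of type V collagen, are neighbours of the col3a1 copies in the RefSeq assembly Xenopus_laevis_v10.1. In dkk embryos col5a2.L was at 3.32, 3.01 and 0.589 CPM, against 1.40, 0.326 and 0.759 CPM in controls. Its log2 fold change was 1.33 ± 0.61 (SE), while that of col5a2.S was 0.03 ± 0.31, and neither passed (adjusted p = 0.668 and 0.994, edgeR). Further fibrillar members that did not pass were col1a2.L at 0.82, col24a1.L at 0.76, col5a3-like.L at 0.65 and col11a2p1.S at 0.34 on the log2 scale.

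Both copies of the fibronectin gene were lower in every dkk embryo than in its sibling, without passing the test. The L copy, fn1.L, was at 619, 493 and 432 CPM in dkk embryos 1 to 3, against 802, 783 and 583 CPM in controls. The S copy, fn1.S, was at 643, 502 and 734 CPM in dkk embryos, against 862, 811 and 817 CPM in controls. For fn1.S the groups did not overlap, which in this direction held for 1 tested member, or 2.56%, and for 2.89% of all tested genes. No tested member was higher in dkk embryos without overlap, beside 2.66% of all tested genes. Log2 fold changes were -0.49 ± 0.09 for fn1.L (SE; 95% interval -0.71 to -0.27; adjusted p = 0.0934, edgeR) and -0.42 ± 0.11 for fn1.S (95% interval -0.69 to -0.16; adjusted p = 0.275). Between 8842 and 16195 reads per library stood behind each value. By the DESeq2 Wald test fn1.L passed (adjusted p = 0.0301), as it did with no filter on low counts (0.00985, edgeR), within a range of 0.00985 to 1.00 over 10 alternatives.

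**Figure D2:**
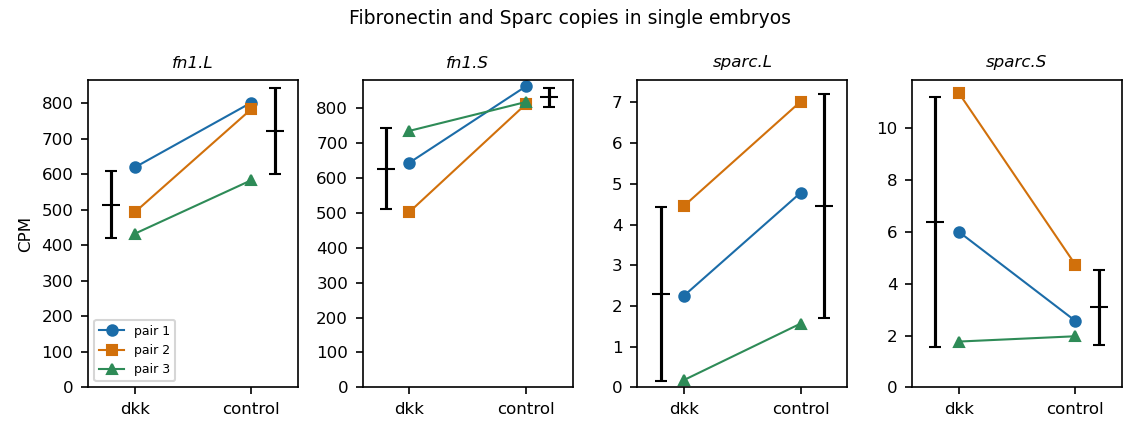
CPM of the 2 fibronectin and 2 Sparc copies in each embryo, dkk left and control right, lines joining siblings. Black bars are mean ± SD (n = 3). Both fn1 copies and sparc.L lie lower in each dkk embryo than in its sibling, while sparc.S lies higher in pairs 1 and 2 and at 1.77 against 1.97 CPM in pair 3.

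Sparc is a collagen-binding matricellular protein with counter-adhesive activity. Its copies stood on opposite sides in the fit and in pairs 1 and 2, while in pair 3 the CPM of both was lower in dkk. In dkk embryos sparc.L was at 2.25, 4.46 and 0.181 CPM, against 4.78, 7.02 and 1.57 CPM in controls, so that all 3 pairs were lower in dkk. The other copy, sparc.S, was at 6.01, 11.4 and 1.77 CPM in dkk embryos, against 2.57, 4.73 and 1.97 CPM in controls, higher in pairs 1 and 2. The log2 fold changes, -1.30 ± 0.42 for sparc.L and 0.83 ± 0.33 for sparc.S (SE), did not pass (adjusted p = 0.408 and 0.592, edgeR). Of the Sparc reads, the L copy held 27.3%, 28.2% and 9.30% in dkk embryos 1 to 3, against 65.1%, 59.7% and 44.3% in their siblings. The shares did not overlap, but how often this held over all genes with both copies tested was not counted. The lowest share rests on 4 reads of sparc.L beside 39 of sparc.S.

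The difference between copies was tested over all 4549 genes whose L and S copies were both tested, as the S minus the L log2 ratio of each sibling pair (limma). For sparc it was 2.25, 1.89 and 2.40 in pairs 1 to 3, a mean of 2.18 ± 0.17 (SE). By unadjusted p it ranked 3 among the 4549 genes, and its adjusted p was 0.242 (limma with Benjamini-Hochberg adjustment), so the difference did not pass. One gene, dkk1, whose S copy holds the injected message, passed, or 0.022% of the genes compared. Of the 11 member genes with both copies tested, 2 had an unadjusted p under 0.05, beside 7.63% of all such genes. The second was col5a1-like, with 0.43, 1.00 and 2.25 in pairs 1 to 3 and a mean of 1.23 ± 0.40 (adjusted p = 0.614, limma). The change of the S copy of col5a1-like is therefore not shown to differ from that of its L copy. For fn1 the difference was 0.07 ± 0.15, for nid2 0.01 ± 0.17 and for lamc1 0.11 ± 0.19, each smaller than its standard error.

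**Figure D3:**
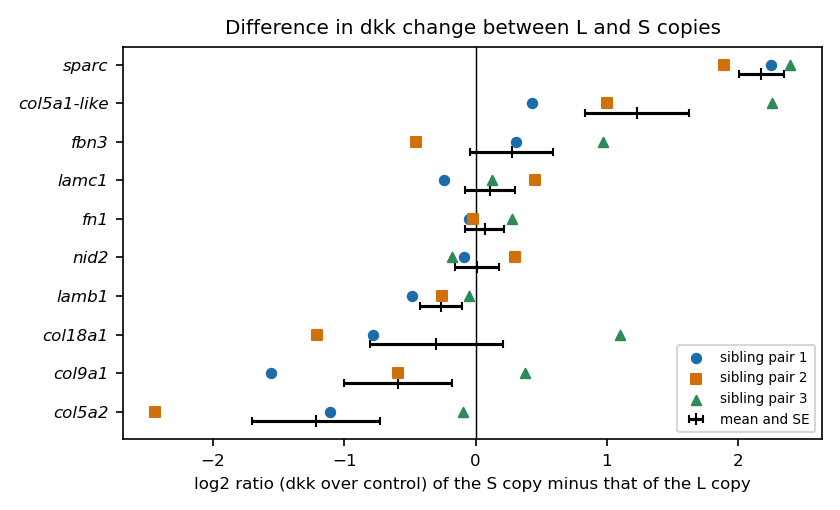
S minus L difference of the log2 ratio (dkk over control) for the 10 matrix genes with both copies tested, a marker per sibling pair and the mean with its SE. The 3 sparc values lie between 1.89 and 2.40, and those of fn1 and nid2 between -0.18 and 0.30.

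Both copies of fbn3, for a fibrillin, the L copies of the type IX collagen genes and col24a1.L were higher in the dkk embryos of pairs 1 and 2 and lower in that of pair 3. In dkk embryos 1 to 3 fbn3.L was at 74.4, 106 and 15.0 CPM, against 37.0, 24.3 and 42.4 CPM in controls. The dkk values thus held both extremes of the 6 embryos. The other copy, fbn3.S, was at 32.7, 33.6 and 4.58 CPM in dkk embryos and at 13.1, 10.6 and 6.63 CPM in controls. Neither passed over the 3 pairs (log2 fold change 0.61 ± 0.93 and 0.88 ± 0.45, SE; adjusted p = 0.937 and 0.733, edgeR).

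Type IX collagen is a FACIT heterotrimer that coats fibrils of type II collagen in cartilage and notochord. Its 3 chain genes showed this pattern in their L copies. In dkk embryos col9a1.L was at 10.6, 8.24 and 3.35 CPM, against 2.68, 4.14 and 3.49 CPM in controls. For col9a2.L the levels were 10.8, 12.1 and 3.49 CPM in dkk embryos and 4.49, 4.46 and 5.46 CPM in controls. For col9a3.L they were 5.58, 6.52 and 1.22 CPM in dkk embryos and 2.45, 1.58 and 3.89 CPM in controls. The S copy col9a1.S differed from this pattern, with log2 ratios of 0.38, 0.39 and 0.32 in pairs 1 to 3 and a log2 fold change of 0.37 ± 0.22 (SE; adjusted p = 0.771, edgeR). The other S copies had the signs of the L copies, but held few reads and were not tested. Log2 ratios were 1.41, 0.57 and -1.08 for col9a2.S and 1.01, 1.36 and -0.09 for col9a3.S, on 45 and 18 reads in all libraries together. In pair 3 both siblings held 3 reads of col9a3.S, so its sign there comes from the scaling to library size alone. In pair 1 it held 2 reads in the dkk embryo and 0 in the control. The minor fibrillar gene col24a1.L was at 8.47, 7.41 and 1.72 CPM in dkk embryos, against 4.26, 2.39 and 2.43 CPM in controls.

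**Figure D4:**
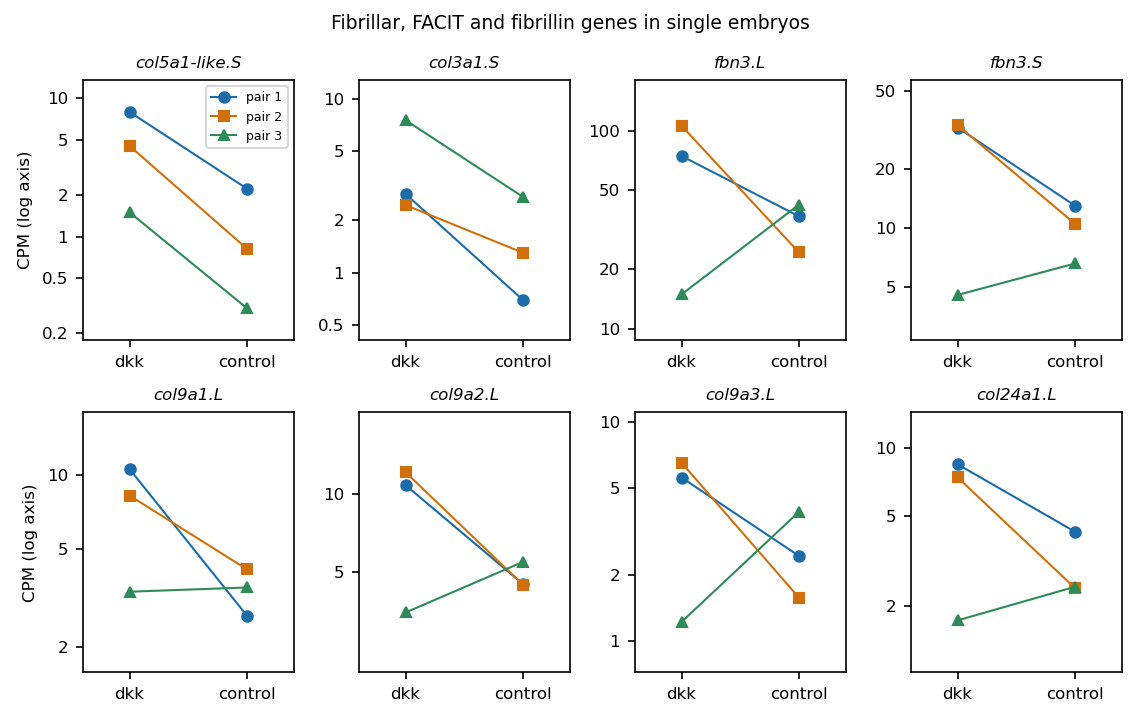
CPM in each embryo on log axes for 8 fibrillar, FACIT and fibrillin genes, dkk left and control right, lines joining siblings. The dkk end of the line is the higher one in all 3 pairs for col5a1-like.S and col3a1.S, and in pairs 1 and 2 but not in pair 3 for the fbn3, col9 and col24a1 genes.

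The pattern of higher, higher and not higher in pairs 1 to 3 was met by 12 of the 39 tested members, or 30.8%, and by 18.0% of all tested genes. The opposite pattern was met by 3 members, or 7.69%, and by 18.9% of all genes. With pair 3 left out, 9 of 39 tested members passed the threshold, or 23.1%, beside 3.03% of 21750 tested genes (edgeR, adjusted over all of them). The corresponding counts were 1 member without pair 1 and 0 without pair 2. The count over all tested genes was likewise highest without pair 3 and lowest without pair 2. The filter on counts was rerun without pair 3, so its 39 members are not the same set as above. It took in col4a1.L and col4a6-like.S and left out col4a6-like.L and lama2.L. Pair 3 is described apart because it was seen to lie on the other side of pairs 1 and 2, so the larger count follows in part from that choice and is no test of it, and the fit rests on 2 sibling pairs. The 6 higher members, beside 1.53% of all genes, were col5a1-like.S, fbn3.S, sparc.S, col9a2.L, col9a3.L and lamb1.L, at log2 fold changes of 2.11, 1.50, 1.25, 1.36, 1.61 and 0.48. In fbn3.L it was 1.57 and did not pass (adjusted p = 0.109, edgeR). The 3 lower members, beside 1.50% of all genes, were fn1.L, fn1.S and col18a1.S, at -0.51, -0.55 and -1.11.

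Marker lists of the gastrula tissues had the following values beside the split between pairs. The median log2 ratio of 19 organizer and notochord genes was 0.63, 0.52 and 0.69 in pairs 1 to 3, and 2 of them, hhex.L and lhx1.S, rose. In all 3 pairs 10 of them, or 52.6%, were higher in dkk, beside 13.4% of all tested genes. Without overlap 8 were higher and 2 lower, or 42.1% and 10.5%, beside 2.66% and 2.89% of all tested genes. Both copies of cer1, for a secreted antagonist of Nodal, BMP and Wnt ligands, lay on the other side, lower in all 3 pairs without overlap, and did not pass (adjusted p = 0.656 for cer1.L and 0.360 for cer1.S, edgeR). Log2 ratios in pairs 1 to 3 were -3.02, -2.21 and -0.29 for cer1.L and -1.54, -1.21 and -0.25 for cer1.S. That of 15 tested paraxial mesoderm genes was -1.32, -1.42 and -2.05, and 6 of them fell. In these lists and that of 13 Wnt response genes, of which 6 fell, the median kept 1 sign over the pairs. For 12 tested epidermal genes the median was 0.24, 0.73 and -0.09, with 1 rise and 1 fall. The rise was krt18.S and the fall tp63.S, at log2 fold changes of 0.80 and -2.71 (adjusted p = 0.0239 and 0.00362, edgeR). grhl3.L, at -0.67, did not pass (adjusted p = 0.0506, edgeR). In all 3 pairs 2 epidermal genes were higher and 2, tp63.S and grhl3.L, lower, 16.7% each, beside 13.4% and 13.9% of all tested genes. For 13 tested endodermal genes the median was -0.22, -0.14 and 0.67, with no call. For 14 neural genes it was -0.03, -0.17 and 0.09, again with no call. These calls are edgeR's. DESeq2 called 7 organizer genes higher and 1 lower, 9 paraxial mesoderm and 8 Wnt response genes lower, 1 epidermal gene higher and 2 lower, 1 endodermal gene higher and 1 neural gene lower. Summed epidermal levels ran between 2286 and 5718 CPM in dkk embryos and between 2309 and 3520 CPM in controls, with the lowest value of each group in mating 3. The summed organizer level was 1356 to 2047 CPM in dkk embryos and 1311 to 1475 CPM in controls. No marker was at 0 in all embryos of a group. The part of these tissues in the differences among matrix genes was not tested.

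The laminins are trimers of an α, a β and a γ chain. Those read at depth here were lama1-like.L, lamb1 and lamc1, the chains of the laminin typical of early embryos. None of the 7 tested laminin members passed. The α chain gene lama1-like.L was at 97.2, 84.7 and 21.5 CPM in dkk embryos, against 71.9, 49.2 and 21.1 CPM in controls. Each dkk embryo was at or above its sibling (log2 fold change 0.42 ± 0.16, SE; adjusted p = 0.565, edgeR). The β chain copy lamb1.L was at 218, 208 and 63.3 CPM in dkk embryos and at 159, 148 and 102 CPM in controls (0.09 ± 0.26). Its partner lamb1.S was at 160, 155 and 27.3 CPM in dkk embryos and at 164, 132 and 45.6 CPM in controls (-0.17 ± 0.19). Both embryos of mating 3 held less of these 3 transcripts than all embryos of the other matings.

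The γ chain copies differed less between embryos. For lamc1.L the mean was 95.3 ± 30.0 CPM in dkk embryos and 105 ± 11.1 CPM in controls (SD, n = 3 each), and for lamc1.S it was 62.1 ± 14.4 CPM in dkk embryos and 66.5 ± 20.2 CPM in controls. Their log2 fold changes were -0.19 ± 0.14, with a 95% interval of -0.52 to 0.15, and -0.08 ± 0.17, with one of -0.47 to 0.31. Of the remaining chains, lama2.L stood at -0.45 ± 0.42 on the log2 scale (SE; adjusted p = 0.884, edgeR). It was lower in all 3 pairs, on 8, 8 and 18 reads in dkk embryos against 10, 10 and 24 in controls. The row lamb3-like.S, named for a chain of epithelial anchoring laminin, stood at 0.06 ± 0.27.

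Among the nidogens, nid2.L was at 244, 261 and 222 CPM in dkk embryos, against 260, 302 and 195 CPM in controls. Its log2 fold change of -0.04 had a 95% interval of -0.29 to 0.21, and that of nid2.S, -0.03, one of -0.47 to 0.41. The other gene was less even, with nid1.S at 27.2, 10.5 and 8.57 CPM in dkk embryos and at 12.8, 18.8 and 1.21 CPM in controls. Its log2 ratios were 1.08, -0.83 and 2.72 in pairs 1 to 3, and the log2 fold change of 0.89 ± 0.77 (SE) did not pass (adjusted p = 0.884, edgeR).

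Basement membrane and membrane-bound collagens gave no call. The multiplexin gene col18a1, whose product lies in basement membranes and holds the endostatin fragment, was at 81.7, 67.8 and 24.2 CPM in dkk embryos and at 118, 54.6 and 46.3 CPM in controls for col18a1.L. The S copy was at 7.18, 5.24 and 4.31 CPM in dkk embryos and at 18.0, 9.85 and 3.84 CPM in controls. Their log2 fold changes were -0.38 ± 0.24 and -0.72 ± 0.31 (SE; adjusted p = 0.795 and 0.634, edgeR). The transmembrane collagen of epidermal hemidesmosomes, col17a1.L, held 94, 13 and 11 reads in dkk embryos, against 11, 10 and 4 in controls. Its log2 fold change of 1.72 ± 0.57 did not pass (adjusted p = 0.421, edgeR). The first dkk embryo stood apart, at 5.04 CPM beside 0.724 and 0.499 CPM in dkk embryos 2 and 3, and without pair 1 the log2 fold change was 0.77. Of col17a1.S, which was not tested, there were 6, 1 and 4 reads in dkk embryos and 4, 5 and 18 in controls. Type IV collagen was barely read: 4 of its 6 rows were untested, and col4a5-like.L and col4a6-like.L stood at -0.32 ± 0.40 and -0.35 ± 0.59. The FACIT gene col12a1.1 had a log2 fold change of -0.01 ± 0.28, the beaded-filament gene col6a1.L 0.14 ± 0.42 and the second fibrillin gene fbn1.S -0.14 ± 0.53, at 0.0557 to 1.61 CPM in single embryos.

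The 34 untested rows included both copies of col4a1, col8a1, col8a2, col11a1-like, col21a1, col25a1.2 and lama4, and had at most 1.55 CPM in any library. A total of 17 of them had a read in every library. At this depth no dkk effect on them was tested in the reported fit. The fit without pair 3 tested col4a1.L and col4a6-like.S, and neither passed (adjusted p = 0.459 and 0.495, edgeR). With no filter on low counts none of the 34 passed. A library with 0 reads of a gene still allows about 3 reads, which is 0.136 to 0.175 CPM here.

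Levels of the matrix genes differed between matings. A test of the mating within the same fit compared the 3 sibling pairs with the spread left between siblings, after the dkk effect. It called 14 of 39 tested members (adjusted p under 0.05, edgeR), beside 22.2% of all tested genes. The median ratio between the highest and the lowest mating was 2.06-fold for tested members and 1.59-fold for all tested genes. Of all tested members 24, or 61.5%, were lowest in mating 3, beside 37.8% of all tested genes. Among the 14 called members, 8 were lowest in mating 3 and 3 were highest there. The count of called members was 7 without mating pair 1, 18 without pair 2 and 7 without pair 3. The count over all genes in these fits is given further down as a range only. The members are therefore not compared with it fit by fit.

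A few members were far lower in both siblings of one mating. col6a1.L, for a chain of the beaded-filament collagen VI, had 0, 40 and 34 reads in dkk embryos 1 to 3 and 0, 38 and 27 reads in controls. Both siblings of mating 1 thus had no read, which allows at most 0.161 and 0.175 CPM, beside 1.37 to 2.23 CPM in the other 4 embryos (mating, adjusted p = 0.00552, edgeR). For col5a2.S the levels were 0.375, 8.86 and 2.45 CPM in dkk embryos and 0.350, 6.64 and 3.29 CPM in controls, a 16.6-fold range over the matings (adjusted p = 0.00216, edgeR). In both genes the siblings of a mating had similar levels, which the choice by smallest p for mating favours. lama1-like.L spanned a 3.90-fold and lamb1.S a 4.58-fold range (adjusted p = 0.00272 and 0.00396, edgeR), in both cases with mating 3 lowest.

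**Figure D5:**
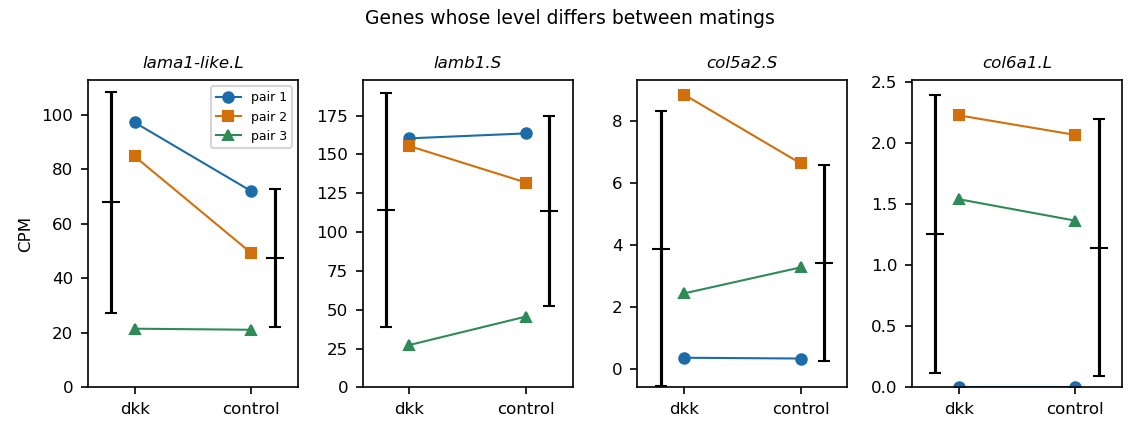
CPM in each embryo for 4 genes whose level differed between matings, dkk left and control right, lines joining siblings. Black bars are mean ± SD (n = 3). Both siblings of mating 1 lie at 0 for col6a1.L, and both siblings of mating 3 lie lowest for lama1-like.L and lamb1.S.

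Genes that act with the matrix were read from lists. Of 21 tested matrix receptor genes 2 fell, 0 rose and 19 did not pass. The first was itga4.S, for the integrin α4 chain, which binds fibronectin with the β1 chain, at 3.27, 2.01 and 1.36 CPM in dkk embryos and 13.0, 5.88 and 4.45 CPM in controls (log2 fold change -1.76 ± 0.25, SE; adjusted p = 0.0297, edgeR). The second was itgb6.L, for an integrin β chain that binds fibronectin and latent TGF-β with the αv chain, at 4.29, 1.45 and 2.58 CPM in dkk embryos and 16.4, 7.45 and 7.23 CPM in controls (-1.91 ± 0.26; adjusted p = 0.0236). In both, dkk embryos lay below all controls. That held for 3 tested receptor genes, or 14.3%, beside 2.89% of all tested genes. Calls with a fall made up 0.467% of all tested genes. The L copy itga4.L stood at -0.77 ± 0.24 and did not pass (adjusted p = 0.387, edgeR). The call of itga4.S was lost without pair 1 (adjusted p = 0.133) or pair 2 (0.0915), and that of itgb6.L without pair 2 (0.0918). Over 10 alternatives the adjusted p ran between 0.000179 and 1.00 for itga4.S and between 4.16e-06 and 0.954 for itgb6.L.

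The main fibronectin receptor of the gastrula has an integrin α5 chain. itga5.L was at 155 ± 28.2 CPM in dkk embryos and 170 ± 32.5 CPM in controls (SD, n = 3 each), a log2 fold change of -0.13 ± 0.10 (SE) that did not pass (adjusted p = 0.837, edgeR). The S copy itga5.S stood at -0.42 ± 0.23. sdc1.L, for a heparan sulphate proteoglycan of the cell surface, and itga3.S, for an integrin chain that binds laminin, stood at -0.77 and 0.46 on the log2 scale and did not pass (adjusted p = 0.225 and 0.360, edgeR).

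No gene of the other matrix lists passed in the reported edgeR fit, with DESeq2 or with limma-voom. Over 10 alternatives the lowest adjusted p, from edgeR under another setting, was 0.0160 for efemp2.L and 0.0480 for sec23a.S. Unadjusted, edgeR gave a p under 0.05 for 2 of 18 tested genes of collagen biosynthesis, both lower. These were pcolce2.L, an enhancer of procollagen processing, at -1.27 on the log2 scale, and sec23a.S, a coat protein of vesicles that carry procollagen, at -0.54. The S copy pcolce2.S, named after its values were seen and not tested, lay on the other side of pcolce2.L. It held 18, 34 and 10 reads in dkk embryos against 5, 10 and 2 in controls, higher in all 3 pairs. In the same list crtap.L, for a partner of collagen prolyl 3-hydroxylase, was at 0.58, and lox.S, for a collagen cross-linking enzyme, at 0.76. Of 18 tested further matrix genes 1 was higher and 1 lower at that level, the thrombospondin gene thbs1.L at 1.12 and the fibulin gene efemp2.L at -2.01, and emilin1.L and smoc1.L came next at 1.01 and 0.75. The S copy thbs1.S, named here after its values were seen, was left untested by the filter on counts. It lay on the other side of thbs1.L, with 1, 1 and 0 reads in dkk embryos against 26, 54 and 2 in controls. Of 25 tested matrix proteases and inhibitors 1 was lower, the gelatinase gene mmp9.L at -0.71, followed by mmp14.S at -0.91, mmp15.S at -0.39 and adamts1.L at -0.27.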

How the data were processed

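Polyadenylated RNA of 6 single embryos was sequenced from Illumina TruSeq libraries, per the labels' protocols. The authors deposited 1 file of raw counts of reads per gene and embryo. The submitters' processing notes name TopHat2, SAMtools and HTSeq. Versions, genome build and annotation were not given in the sources used here. Library sizes exclude the rows without a gene, which held 7.58% to 8.80% of the counted reads as outside genes, 2.03% to 2.19% as ambiguous and 15.9% to 17.6% as aligned more than once. A read that aligns to both the L and the S copy is thus not in either count, which makes the split between copies uncertain. Strand use in counting is not stated.

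The authors' deposited table of 97 genes from their own comparison holds, per the file headers, a signal (baseMean), log2 fold changes, scores (standard error and test statistic) and p-values. It contains 0 of the members, and nothing else from it is printed.

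The tests ran in edgeR 4.0.16 under R 4.3.3 (filterByExpr with a minimum count of 10 and total of 15, TMM, robust glmQLFit, glmQLFTest) blocked on the mating pair, and adjusted over all tested genes. Standard errors follow from the F statistic. A prior count of 2 went into the log2 ratio of each pair. Mating was tested by the 2 pair coefficients of the same fit, and copy differences with limma 3.58.1. The tests were tried on simulated data in which every gene had the same spread. That trial does not bear on genes whose spread differs. The floor of 3 reads covers counting error only. The intervals cover the error of the fit, which includes the spread between embryos left after the mating block. The correlation of deviations from group means was 0.674, 0.552 and 0.622 within matings 1 to 3, which the design text gives as the pairing. The p-values rest on the spread between these 3 sibling pairs, each of 2 single embryos. For each gene that spread was moderated by the spread over all tested genes.

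The members and lists were chosen with earlier results of these data known. Genes named were every member past the threshold, the 2 with the most CPM in each family, the 6 next smallest p, the 5 highest and 5 lowest log2 fold changes, their other copies, every dkk1 and axin2 row, the 4 smallest p for mating, and in each list those past the threshold and up to 4 of smallest p, of which tissue marker and Wnt response genes are given as lists. Named after their values were seen were itga4.L, itga5.L, itga5.S, thbs1.S, pcolce2.S and the remaining tested members. Of the 73 names, 44 matched a symbol of the RefSeq table for Xenopus_laevis_v10.1, used for names and neighbours alone. Alternatives were no block, size factors of DESeq2 1.42.0 or upper-quartile factors within edgeR, the Wald test of DESeq2, limma-voom, no filter, at least 1 CPM in 3 libraries, summed copies, leaving out each mating pair and, for copy differences, a prior count of 0.5 or a mean of at least 5 CPM.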

Additional observations from a re-analysis of the deposited data

How the results depend on the processing

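The count of genes past the threshold in the comparison of dkk with control embryos was 124, of which 1 was a matrix member. It was 14 with 0 members without the mating pair as a block, 388 with 2 members (col5a1-like.S and fn1.L) by the DESeq2 Wald test, and 343 with 3 members (these 2 and col3a1.S) with no filter on low counts. With L and S copies summed, 0 members passed. Leaving out each pair gave 58 to 659 genes and 0 to 9 members, the highest of each without pair 3 and the lowest without pair 2. The members' median log2 fold change stayed between 0.02 and 0.36 over all alternatives, 0.04 to 0.36 when a pair was left out. The mating test called 3237 to 4642 genes and 7 to 18 members with a pair left out. Genes whose copies differed in their dkk change numbered 0 to 1 with a pair left out and 0 with a prior count of 0.5. Leaving out the 2 col4a3bp rows, chosen after seeing the data, gave 1 member past the threshold. Among 80 named genes or copy differences, 504 of 542 values under alternatives that keep all pairs had the direction and side of the threshold of the reported fit. Signs turned for col4a3bp.L, at 0.013 without the block, 0.0090 with upper-quartile scaling and 0.0011 with limma-voom, and for lamb1.S, at 0.0084 without the block. The cause of these differences was not tested. Leaving out a pair turned 12 of 238 values. Those log2 fold changes ranged over -0.0040 to 0.54 for col11a2p1.S, -0.078 to 0.017 for col4a3bp.L, -0.77 to 0.43 for col4a6-like.L, -0.27 to 0.36 for col5a2.S, -0.23 to 1.57 for fbn3.L, -0.12 to 0.48 for lamb1.L, -0.38 to 0.11 for lamb1.S, -0.33 to 0.011 for lamc1.L, -0.31 to 0.11 for lamc1.S and -0.14 to 0.042 for nid2.L. Depth limits the untested members, all at or under 1.55 CPM.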

Other observations

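The 2 rows taken by spelling alone, for a ceramide transfer protein, did not pass: col4a3bp.L was at 38.9, 37.8 and 75.0 CPM in dkk embryos and 41.1, 40.3 and 68.9 CPM in controls, and col4a3bp.S at 28.8, 21.1 and 35.5 CPM in dkk embryos and 44.1, 28.4 and 35.9 CPM in controls. Their log2 fold changes were -0.02 ± 0.13 and -0.35 ± 0.17 (SE; adjusted p = 0.993 and 0.673, edgeR). col4a6-like.S was among the members that the filter on counts left untested in the reported fit. It held 29, 0 and 1 reads in dkk embryos 1 to 3 and 13, 0 and 0 reads in controls. Of its 43 reads, 1 came from outside mating 1. This mating is the one in which col6a1.L had no read and col5a2.S was lowest.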
